A study of Mus musculus with 12 samples.

Results

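The genes described here are 10 junction genes of mouse liver: the cadherins Cdh1 and Cdh2, the catenins Ctnnb1, Ctnna1 and Jup, the tight junction genes Tjp1, Cldn1 and Cldn2, and the connexins Gjb1 and Gjb2. Every probe set whose annotated symbol was exactly 1 of these names was taken, which gave 21 probe sets of 45101 on the array and 10 genes of 18194. The genes were chosen with earlier results of these data known. The 4 groups of male mice, all on a 129J background, held 3 animals each, with 1 array per animal. They were Iqgap2-/- (KO) mice at 24 months, from which liver tumor was taken, KO mice at 6 months with normal liver, and wild-type (WT) mice at 24 months and at 6 months with normal liver. The KO mice at 24 months were sampled as tumor and not as adjacent liver, so that tumor and genotype cannot be told apart at that age. IQGAP proteins are scaffolds that bind actin and small GTPases, and IQGAP1 is known to bind E-cadherin and β-catenin.

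Neighbouring hepatocytes are held together by adherens junctions, in which cadherins bind each other across the gap between cells and catenins tie them to actin. Tight junctions, built from claudins on a Tjp1 (ZO-1) scaffold, seal the bile canaliculus from the blood, and gap junctions made of connexins pass ions and metabolites from cell to cell. Along the rodent liver lobule E-cadherin is known mainly from hepatocytes near the portal vein, whereas claudin-2 is known to increase towards the central vein.

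Iqgap2, the deleted gene, went against the labels of 2 groups. On its brighter probe set (1433885_at) the log2 intensity was 12.12 ± 0.06 in the arrays labelled KO 24 months tumor and 8.29 ± 0.34 in those labelled KO 6 months (SD, n = 3 each). It was 12.17 ± 0.21 in the arrays labelled WT 24 months and 8.32 ± 0.07 in those labelled WT 6 months (SD, n = 3 each). The arrays labelled KO 24 months tumor were thus as high as those labelled WT 24 months, and the arrays labelled WT 6 months were as low as those labelled KO 6 months, KO 6 differing from WT 6 months by -0.03 (SE 0.16, limma adjusted p = 0.938). If the label WT 6 months and the label KO 24 months tumor are exchanged, the same arrays are compared under other names. The deposited labels were kept, every group name here means the arrays that carry that label, and the pair KO 6 and WT 24 months, which holds neither of the doubtful labels, is given beside the others. It differs in genotype and in age at once.

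Cdh1 and Cldn2 set the arrays labelled WT 6 months apart from all the others, in opposite directions. In those 3 arrays Cdh1 was at least 8.25-fold lower by group mean than in any other group and Cldn2, on its brighter probe set, was at least 3.35-fold higher than in any other group. Among KO 24 months tumor, KO 6 months and WT 24 months no junction probe set passed the test, with log2 differences from -0.56 to 0.90. A probe set is called here where its p in limma, adjusted over all 45101 probe sets by the Benjamini-Hochberg method, is at most 0.05. All levels are log2 intensities, all differences are log2, and levels of different probe sets are not comparable with each other.

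**Figure D1:**
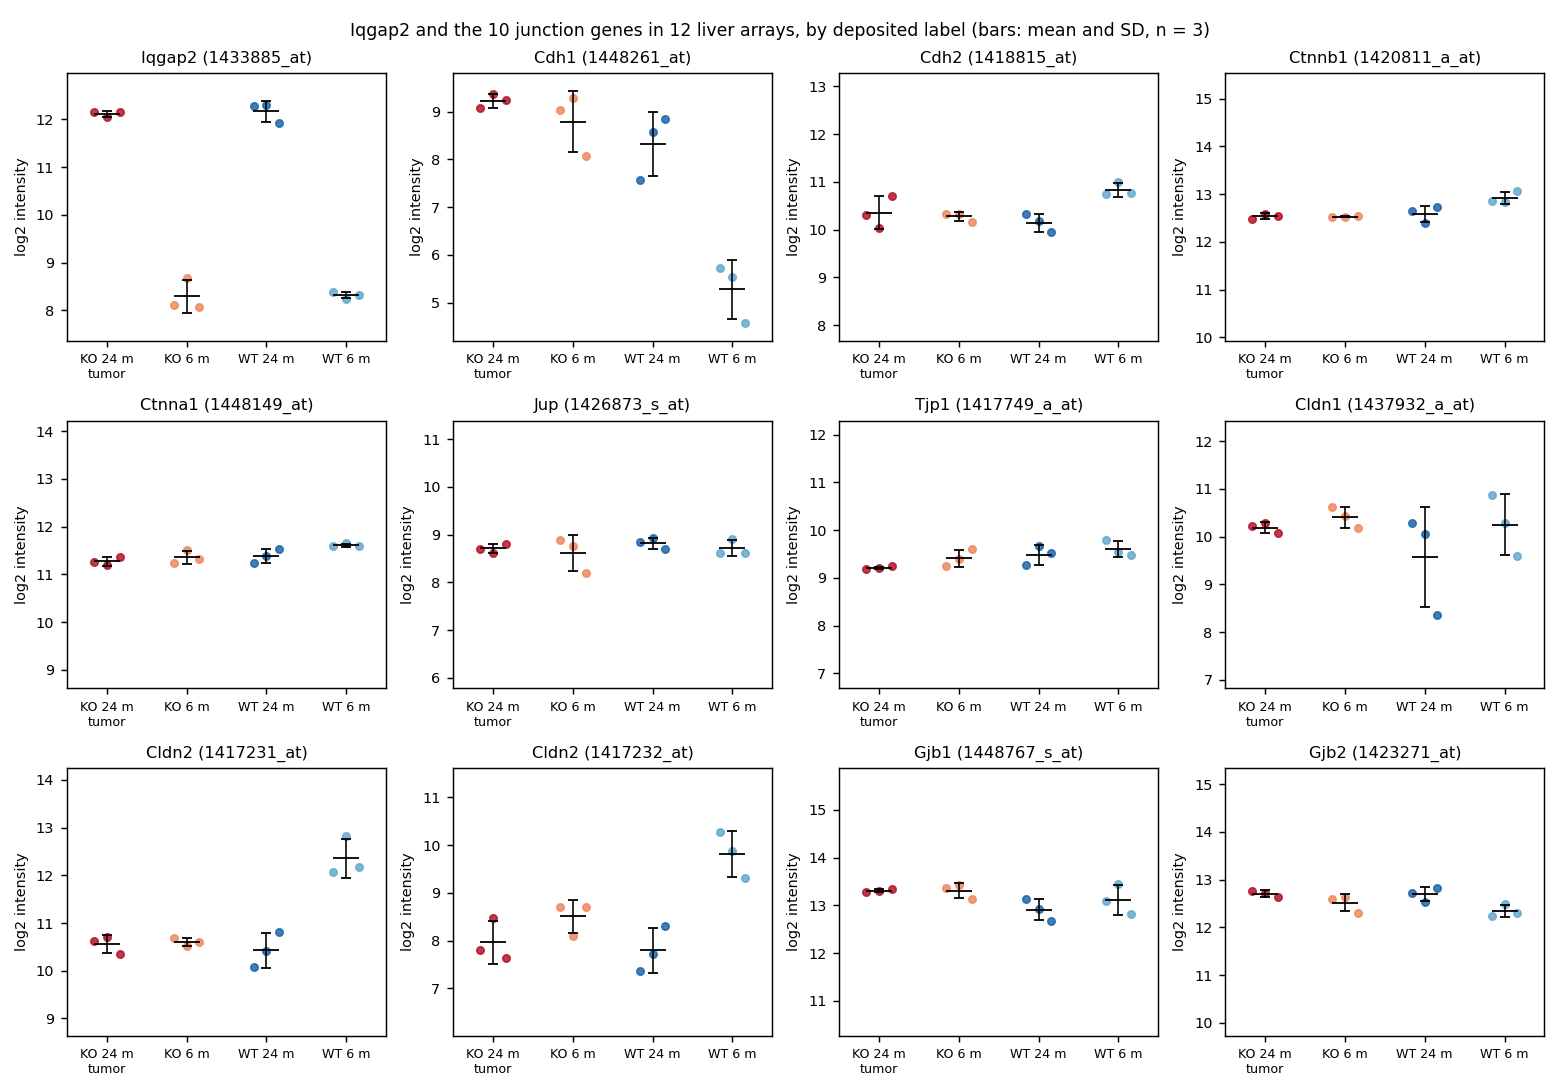
Log2 intensity (vertical axis, own range in each panel) of Iqgap2 and the 10 junction genes in the 4 labelled groups, 1 point per array, with the mean and SD (n = 3) as bars; Cldn2 is shown on both of its probe sets and every other gene on its brightest. The 3 arrays labelled WT 6 months lie below all others for Cdh1 (5.72 or less) and above all others for Cldn2.

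Cdh1 encodes E-cadherin, the epithelial cadherin of the adherens junction. It was represented by 1 probe set (1448261_at), which read 9.07, 9.36 and 9.25 in KO 24 months tumor and 9.03, 9.27 and 8.06 in KO 6 months. It read 7.57, 8.57 and 8.84 in WT 24 months and 5.72, 5.54 and 4.57 in WT 6 months. The lowest array outside the WT 6 months group was WT 24 months replicate 1, and no array of another group came down into the WT 6 months range. Cdh1 was 11.4-fold higher in KO 6 months than in WT 6 months, or 3.51 in log2 units (SE 0.39, adjusted p = 0.000177 from limma). It was 8.25-fold higher in WT 24 months than in WT 6 months, or 3.05 in log2 units (SE 0.39, adjusted p = 0.00053 from limma). KO 24 months tumor exceeded WT 24 months by 0.90 (95% interval 0.05 to 1.76). Although the 3 arrays labelled tumor lay above the 3 labelled WT 24 months, the difference did not pass (adjusted p = 0.304 from limma). Both calls held in all 22 alternatives, with adjusted p up to 0.00156 for KO 6 over WT 6 months and up to 0.0176 for WT 24 over WT 6 months. RMA gives no call of presence, so how much background the lowest readings hold was not tested. The paper lists Cdh1 among the genes that fell with age in KO livers, by 11-fold. Under the deposited labels, KO 24 months tumor over KO 6 months was 0.44 for Cdh1 (SE 0.39, adjusted p = 0.914 from limma). With the doubtful labels exchanged, the paper's comparison would be that of KO 6 and WT 6 months here, with Cdh1 11.4-fold (log2 3.51) higher in KO 6 months.

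Cldn2 encodes claudin-2, a pore-forming claudin that lets cations and water through the tight junction. Its brighter probe set (1417231_at) read 10.62, 10.71 and 10.34 in KO 24 months tumor and 10.69, 10.53 and 10.61 in KO 6 months. It read 10.07, 10.41 and 10.80 in WT 24 months and 12.07, 12.82 and 12.17 in WT 6 months. The WT 6 months arrays stood above all 9 others, and the remaining groups overlapped. Cldn2 was 3.35-fold lower in KO 6 months than in WT 6 months, or -1.75 in log2 units (SE 0.21, adjusted p = 0.000319 from limma). It was 3.79-fold lower in WT 24 months than in WT 6 months, or -1.92 in log2 units (SE 0.21, adjusted p = 0.000189 from limma). The second probe set (1417232_at) read 7.80, 8.47 and 7.63 in KO 24 months tumor, 8.71, 8.11 and 8.70 in KO 6 months, 7.37, 7.71 and 8.31 in WT 24 months and 10.27, 9.88 and 9.31 in WT 6 months. Here too the WT 6 months arrays stood above all others, with -1.31 between KO 6 and WT 6 months (SE 0.31, adjusted p = 0.0179 from limma) and -2.02 between WT 24 and WT 6 months (SE 0.31, adjusted p = 0.00175 from limma). The KO 6 months call was lost on that probe set without KO 6 months replicate 2 (adjusted p = 0.0747), WT 6 months replicate 1 (0.0607) or WT 6 months replicate 2 (0.0571), all from limma.

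The sequence upstream of Cldn2 is shown because it is the junction gene with the largest excess in WT 6 months, and that of Cldn1 as the other claudin, which passed no test. Both windows come from RefSeq on GRCm38.p6 and run from 250 bases before to 50 bases after the annotated start, 5′ to 3′ on the strand of the gene. Cldn2 lies at chrX:139800558-139800857 (+ strand) and Cldn1 at chr16:26371790-26372089 (- strand). Capitals mark E-boxes, the letters CANNTG, which is the core that Snail, Slug and Twist proteins read.
Cldn2: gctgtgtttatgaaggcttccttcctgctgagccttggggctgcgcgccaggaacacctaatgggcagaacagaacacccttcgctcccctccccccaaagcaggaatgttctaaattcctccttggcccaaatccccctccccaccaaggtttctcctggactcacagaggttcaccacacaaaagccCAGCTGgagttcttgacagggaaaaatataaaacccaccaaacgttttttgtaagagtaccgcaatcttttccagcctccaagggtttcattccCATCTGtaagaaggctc
Cldn1: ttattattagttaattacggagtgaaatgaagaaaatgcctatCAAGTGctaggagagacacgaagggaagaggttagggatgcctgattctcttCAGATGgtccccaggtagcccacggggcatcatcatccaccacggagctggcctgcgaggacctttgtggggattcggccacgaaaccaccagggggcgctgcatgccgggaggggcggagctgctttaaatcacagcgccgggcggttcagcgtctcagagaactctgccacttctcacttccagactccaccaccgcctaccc
Each window held 2 E-boxes. Promoter windows were matched for 7 of the 10 junction genes, 11 windows in all, and 7 of the 11 held an E-box on either strand, against 72.3% of 32851 promoter windows of the same length. The form CAGGTG, or CACCTG on the other strand, which is also counted among the E-boxes, stood in 2 of the 11 windows (Gjb2 and 1 of the Gjb1 windows), against 20.2% of all windows. CTTTGAT, a form bound by TCF/LEF factors, stood in 0 of the 11 in either orientation, against 3.73% of all. These are matches of letters in short windows and say nothing of binding.

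Cdh2, which encodes N-cadherin, the other main cadherin of hepatocytes, was slightly higher in WT 6 months on both probe sets. Its brighter probe set (1418815_at) read 10.31, 10.03 and 10.71 in KO 24 months tumor and 10.34, 10.33 and 10.17 in KO 6 months. It read 10.32, 10.18 and 9.94 in WT 24 months and 10.74, 11.01 and 10.78 in WT 6 months. KO 24 months tumor replicate 3 came close to the lowest WT 6 months array, and the other groups overlapped each other. Cdh2 was 1.48-fold lower in KO 6 than in WT 6 months (log2 -0.56, SE 0.16, adjusted p = 0.0461 from limma) and 1.62-fold lower in WT 24 than in WT 6 months (log2 -0.69, SE 0.16, adjusted p = 0.0216 from limma). The second probe set (1449244_at) gave -0.42 (adjusted p = 0.0319) and -0.67 (adjusted p = 0.00329) in these comparisons, from limma. The mean of both probe sets gave -0.49 (adjusted p = 0.0131) and -0.68 (adjusted p = 0.00252), from limma. For the brighter probe set the KO 6 over WT 6 months call was lost without any 1 of the KO 6 or WT 6 months arrays, and without KO 24 months tumor replicate 1 or WT 24 months replicate 2, with adjusted p up to 0.157 (limma). The second probe set lost it without any 1 of the KO 6 months arrays or WT 6 months replicates 1 or 3 (adjusted p up to 0.104). The WT 24 over WT 6 months call was lost on the brighter probe set without WT 6 months replicate 2 (adjusted p = 0.0823) or WT 24 months replicate 3 (0.0641), and on the second it held whichever array was left out.

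The catenins link the cadherin tail to the cytoskeleton, and Ctnnb1 (β-catenin) also acts as the transcriptional arm of Wnt signaling. On its brightest probe set (1420811_a_at) Ctnnb1 read 12.47 to 12.59 in KO 24 months tumor, 12.52 to 12.53 in KO 6 months, 12.39 to 12.72 in WT 24 months and 12.84 to 13.07 in WT 6 months. It was 1.32-fold lower in KO 6 than in WT 6 months (log2 -0.40, SE 0.11, adjusted p = 0.029 from limma), a call lost without any 1 of the KO 6 months arrays or WT 6 months replicates 2 or 3 (adjusted p up to 0.1). The other Ctnnb1 probe sets differed by -0.22 and -0.23 in that comparison and did not pass, nor did the mean of the 3 (-0.28, adjusted p = 0.174), whereas between WT 24 and WT 6 months that mean passed at -0.47 (adjusted p = 0.0389). Of the single probe sets only the dimmest (1430533_a_at) passed between WT 24 and WT 6 months, at -0.69 (SE 0.19, adjusted p = 0.0484 from limma), and it passed in 6 of 20 alternatives. The call ended without any 1 array other than KO 24 months tumor replicate 2, WT 6 months replicate 2 or WT 24 months replicate 3, with adjusted p up to 0.152.

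Ctnna1 encodes α-catenin, the actin-binding partner of β-catenin. Its 4 probe sets did not behave alike. Between KO 6 and WT 6 months 1437807_x_at differed by -0.55 (SE 0.13, adjusted p = 0.0201 from limma) and 1436631_at by -0.82 (SE 0.21, adjusted p = 0.0276 from limma), whereas the brightest, 1448149_at, differed by -0.26 (95% interval -0.49 to -0.03, adjusted p = 0.146) and did not pass. The mean of the 4 passed, at -0.40 (adjusted p = 0.0076). The suffix x marks a probe set whose probes may also bind other transcripts. The calls were lost without WT 6 months replicate 2 (adjusted p = 0.0818 for 1437807_x_at and 0.106 for 1436631_at) and without KO 6 months replicate 1 (0.0792 and 0.104). They were also lost without KO 6 months replicate 3 for 1437807_x_at (0.0554) and without KO 6 months replicate 2 for 1436631_at (0.064). The fourth probe set, 1437275_at, stayed between 3.22 and 3.98 in all 12 arrays. Jup encodes plakoglobin, a catenin shared by adherens junctions and desmosomes. It read 8.62 to 8.80 in KO 24 months tumor, 8.19 to 8.88 in KO 6 months, 8.69 to 8.92 in WT 24 months and 8.61 to 8.91 in WT 6 months, with all groups overlapping. Its differences lay between -0.11 and 0.11 in the comparisons of the 4 groups by genotype or age.

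Tjp1 and Cldn1, the remaining tight junction genes, passed no comparison. Tjp1, the scaffold under the claudins, read 9.19 to 9.24 in KO 24 months tumor, 9.25 to 9.60 in KO 6 months, 9.26 to 9.67 in WT 24 months and 9.48 to 9.80 in WT 6 months. The tumor arrays lay just below the WT 24 months arrays, a difference of -0.28 (95% interval -0.56 to 0.01, adjusted p = 0.346 from limma). Cldn1 encodes claudin-1, a sealing claudin of hepatocytes and bile ducts, and it was the most scattered member within groups. Its brightest probe set (1437932_a_at) read 10.22, 10.29 and 10.07 in KO 24 months tumor and 10.61, 10.43 and 10.18 in KO 6 months. It read 10.30, 10.06 and 8.37 in WT 24 months and 10.86, 10.30 and 9.59 in WT 6 months. WT 24 months replicate 3 was the lowest array and WT 6 months replicate 1 the highest, and the same 2 arrays held these places on the other bright probe set (1450014_at, 5.99 and 8.78). KO 24 months tumor exceeded WT 24 months by 0.62 (95% interval -0.33 to 1.57, adjusted p = 0.52 from limma), and by 0.02 without WT 24 months replicate 3 (adjusted p = 0.989). That array also held the highest mean of 12 Kupffer cell and macrophage markers, 11.87 against 7.40 to 9.08 in the 11 other arrays, and of 9 lymphocyte markers, 6.71 against 5.47 to 5.76. The part of these cells in its Cldn1 reading was not tested. The 2 other Cldn1 probe sets stayed between 3.07 and 3.51 in every array.

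The connexins Gjb1 (connexin 32) and Gjb2 (connexin 26) form the main gap junctions between hepatocytes. Gjb1 on its brighter probe set (1448767_s_at) read 13.29, 13.29 and 13.35 in KO 24 months tumor and 13.37, 13.43 and 13.14 in KO 6 months. It read 13.13, 12.93 and 12.68 in WT 24 months and 13.09, 13.45 and 12.83 in WT 6 months. All 6 KO-labelled arrays were above the 3 WT 24 months arrays, by 0.40 for KO 24 months tumor (95% interval 0.05 to 0.75, adjusted p = 0.272 from limma) and by 0.40 for KO 6 months (95% interval 0.05 to 0.75, adjusted p = 0.313 from limma), and the WT 6 months arrays, at 12.83 to 13.45, overlapped every other group. Neither difference passed, and the second Gjb1 probe set differed by 0.17 and 0.24 in the same comparisons. Gjb2 read 12.63 to 12.76 in KO 24 months tumor, 12.31 to 12.64 in KO 6 months, 12.53 to 12.83 in WT 24 months and 12.24 to 12.49 in WT 6 months. The 3 WT 24 months arrays lay above the 3 WT 6 months arrays by 0.35 (95% interval 0.09 to 0.61), which did not pass (adjusted p = 0.103 from limma).

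**Figure D2:**
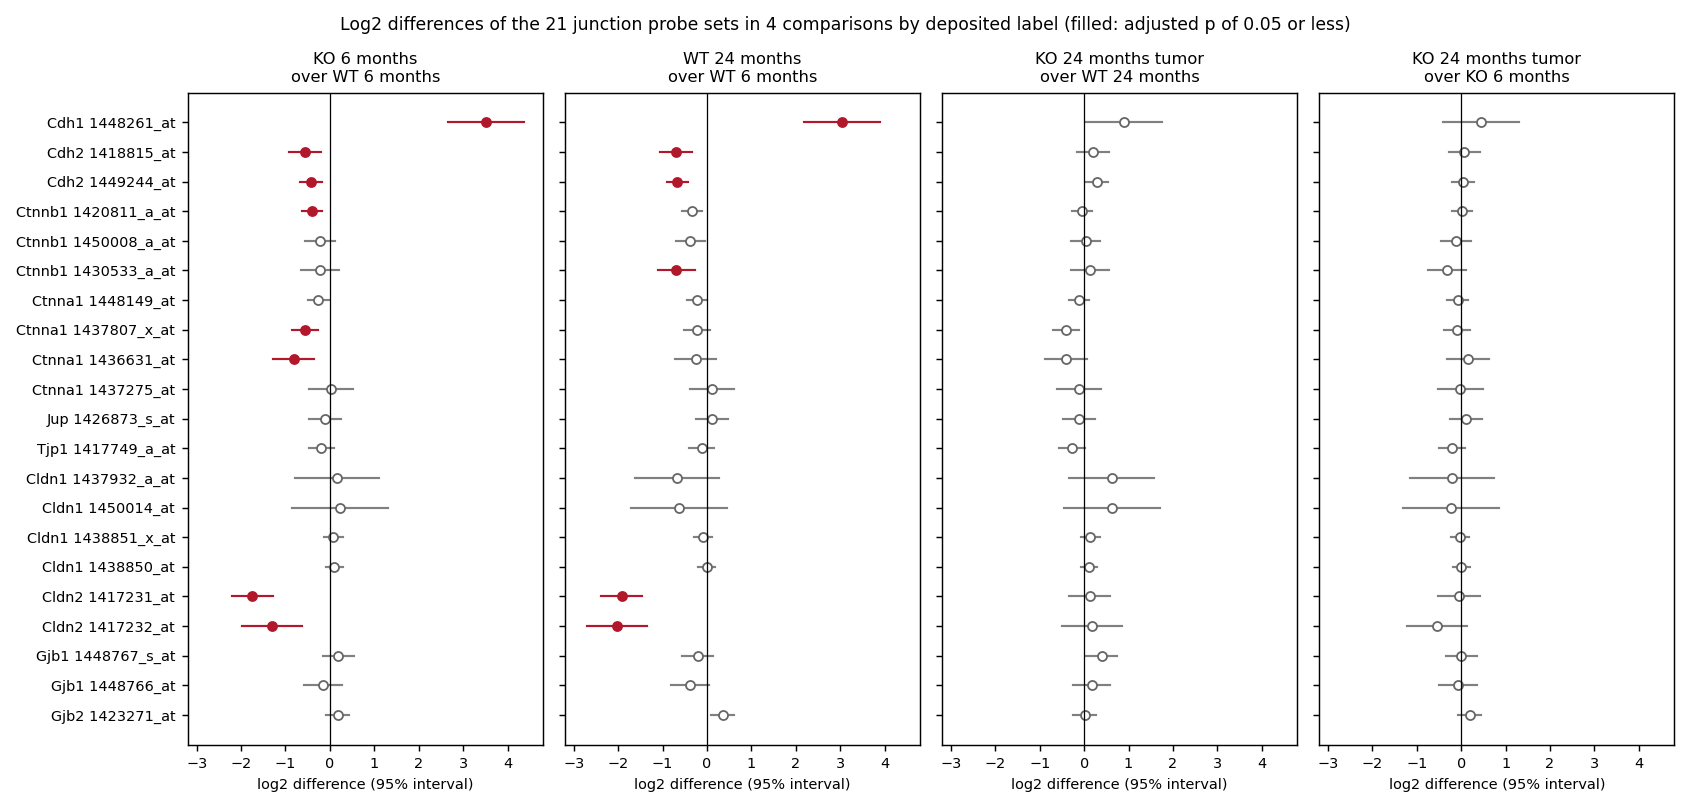
Log2 differences (horizontal axis) with 95% intervals for the 21 junction probe sets in 4 comparisons of the labelled groups, filled where the adjusted p is 0.05 or less. Calls stand only in the panels that hold the arrays labelled WT 6 months, with Cdh1 to the right and Cldn2 to the left.

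Counted by comparison, 8 of the 21 probe sets passed between KO 6 and WT 6 months, 1 higher and 7 lower in KO, where 12.1% of all probe sets passed, 6.1% as higher and 6.02% as lower. They belonged to 5 genes: Cdh1 was higher, and Cdh2, Ctnnb1, Ctnna1 and Cldn2 were lower. Left-out arrays brought the 8 down to 3 without replicates 1 or 2 of KO 6 months or replicate 2 of WT 6 months, to 4 without KO 6 months replicate 3, and to 5 without WT 6 months replicates 1 or 3. Between WT 24 and WT 6 months 6 probe sets of 4 genes passed, 1 higher (Cdh1) and 5 lower (Cdh2, Ctnnb1 and Cldn2), against 8.75% of all, 3.79% as higher and 4.95% as lower. At a fold of 3 or more, the threshold of the study's methods, 2 probe sets passed in KO 6 over WT 6 months (1.79% of all) and 3 in WT 24 over WT 6 months (1.64% of all), all of Cdh1 or Cldn2. The median difference of the junction probe sets was -0.19 between KO 6 and WT 6 months, against 0.04 over all probe sets, and -0.26 between WT 24 and WT 6 months, against 0.00. The 2 comparisons share the WT 6 months arrays, so that their agreement is not independent.

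The comparisons without the arrays labelled WT 6 months held no call among these genes. In KO 24 months tumor over WT 24 months 0 of 21 probe sets passed in limma, against 0.237% of all, 4 had an unadjusted p under 0.05 (15.3% of all), and SAM called 0. Those 4 were Cdh1, the second Cdh2 probe set and the brighter Gjb1 probe set, which read higher in the arrays labelled KO 24 months tumor, and the Ctnna1 probe set 1437807_x_at, which read lower. In KO 24 months tumor over KO 6 months 0 passed, against 0.02% of all, 0 had an unadjusted p under 0.05 (6.11% of all), and SAM called 0. In KO 6 over WT 24 months 0 passed, against 0.135% of all, 5 had an unadjusted p under 0.05 (13.4% of all), and SAM called 0. Those 5 were 1430533_a_at of Ctnnb1, 1417232_at of Cldn2 and the brighter Gjb1 probe set, which read higher in KO 6 months, and 1437807_x_at and 1436631_at of Ctnna1, which read lower. These were the low counts of whole comparisons: in limma 107, 9 and 61 of all 45101 probe sets passed in the 3 comparisons, and the first of these counts was 1166 without WT 24 months replicate 1 and the last 784, with the junction counts still at 0. With 3 arrays a group no exact permutation test can give p below 0.1, the number of arrays limits the precision, and p values measure only the spread between these animals.

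Whether the KO over WT difference was the same at both ages was tested by the interaction, which is the same number whether or not the doubtful labels are exchanged. Since only the KO mice at 24 months were sampled as tumor, age and tumor cannot be told apart in the interaction. In it 3 of the 21 probe sets passed, against 3.14% of all. The difference at 24 months minus that at 6 months was -2.61 for Cdh1 (SE 0.55, adjusted p = 0.0262 from limma). It was 1.87 for Cldn2 on 1417231_at (SE 0.30, adjusted p = 0.00551 from limma) and 0.70 for Cdh2 on 1449244_at (SE 0.16, adjusted p = 0.0362 from limma). The other probe set of each of these genes did not pass, with 1.48 for Cldn2 on 1417232_at (adjusted p = 0.107, and 0.0419 without WT 24 months replicate 3) and 0.76 for Cdh2 on 1418815_at (adjusted p = 0.118). The Cldn2 call on 1417231_at held without any 1 array. The Cdh1 call was lost without KO 6 months replicates 1 or 2 (adjusted p = 0.0669 and 0.073), without any 1 of the KO 24 months tumor arrays (0.0604 to 0.0752) or without WT 24 months replicate 2 (0.0535), while its value stayed between -2.99 and -2.25. The Cdh2 call was lost without any 1 array other than WT 6 months replicate 2 and WT 24 months replicate 2, with adjusted p up to 0.0956.

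Set against the mean of the 3 other groups, a contrast chosen after the pattern was known, the arrays labelled WT 6 months differed in 8 of 21 probe sets (7 higher, 1 lower), where 15.8% of all probe sets passed, 8.19% as higher and 7.6% as lower. Cdh1 was lower, at -3.50 (SE 0.32) and the Cldn2 probe sets were higher by 1.82 (SE 0.17) and 1.73 (SE 0.25). The genes whose 12 values were most like those of Cdh1, by root mean square difference of log2 values centred on each probe set's mean, were Enho (0.47), Igfbp2 (0.547) and Cryl1 (0.549), against a spread of Cdh1 itself of 1.62. For the brighter Cldn2 probe set they were D830012I24Rik (0.16), Pbk (0.213) and Syt12 (0.214), against its own spread of 0.83. All of these were read over the same 12 arrays, and a split of WT 6 months from the rest is enough to make genes alike by this measure.

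Genes that mark the lobule's zones moved with Cdh1 and Cldn2 in the same arrays. The mean of 10 periportal hepatocyte genes was 12.34 to 12.74 in the 9 arrays of the other groups, against 8.08 to 9.26 in WT 6 months, and 8 of the 10 passed as higher both in KO 6 and in WT 24 months than in WT 6 months. The mean of 14 pericentral genes was 9.64 to 10.24 in the other groups, against 12.33 to 12.45 in WT 6 months, and 11 of the 14 passed as lower in KO 6 and 12 in WT 24 months than in WT 6 months. Of 12 endothelial markers 11 passed as higher in each of those comparisons, with means of 7.84 to 8.83 in the other groups and 6.37 to 7.13 in WT 6 months. Of 12 stellate cell and fibroblast markers 6 passed as higher in each, with means of 7.18 to 7.62 in the other groups and 6.11 to 6.83 in WT 6 months. The mean of 10 hepatocyte markers was 14.06 to 14.44 in the other groups and 14.03 to 14.24 in WT 6 months, high in every array as the tissue label says. Of 8 biliary markers 2 passed as higher in KO 6 and 1 in WT 24 than in WT 6 months, with means of 5.76 to 6.01 in the other groups and 5.47 to 5.77 in WT 6 months. Among 12 Kupffer cell and macrophage markers 0 passed in KO 6 and 1 as higher in WT 24 months. Among 9 lymphocyte markers 1 passed as higher in KO 6 and 0 in WT 24 months. Over all genes 8.14% passed as higher and 7.48% as lower in KO 6 than in WT 6 months. The shares were 5.39% and 6.36% in WT 24 than in WT 6 months. In bulk tissue, fewer cells of a type and less RNA per cell cannot be told apart, and the part of these shifts in the junction values was not tested.

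**Figure D3:**
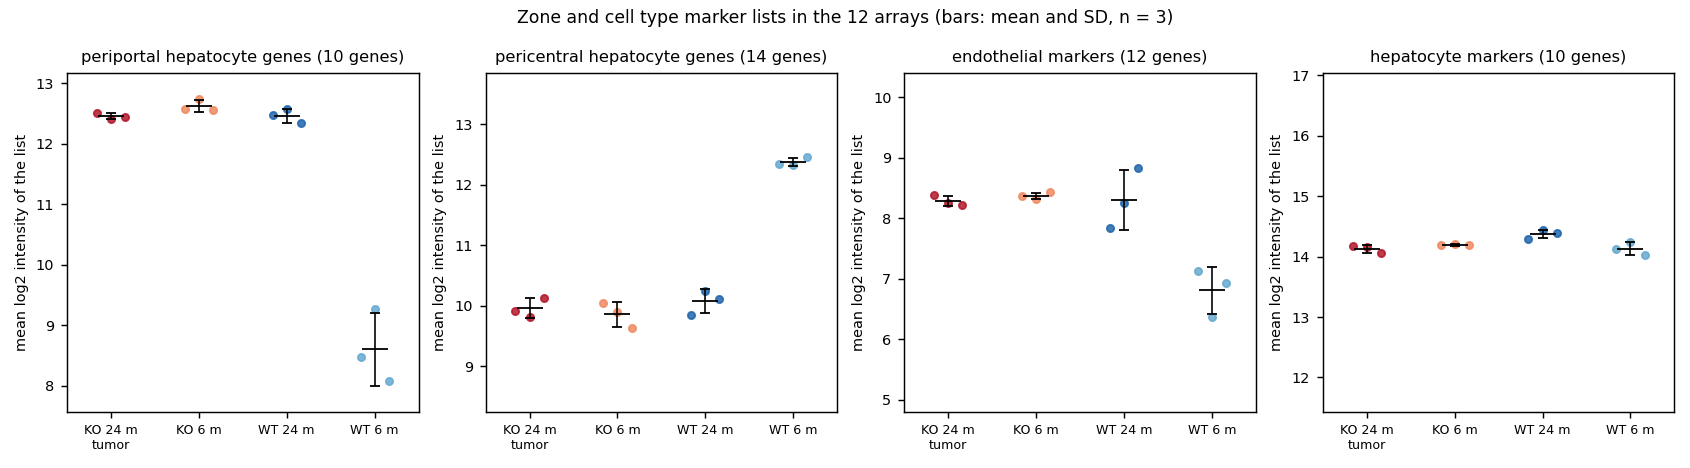
Mean log2 intensity (vertical axis) of 4 marker lists in each of the 12 arrays by label, with the group mean and SD (n = 3) as bars. Periportal and endothelial means are lowest and pericentral means highest in the 3 arrays labelled WT 6 months, while hepatocyte markers lie between 14.03 and 14.44 in all arrays.

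Most other genes of the same junctions did not pass. Among 27 further adherens junction and desmosome genes, 1 was higher and 3 were lower in KO 6 than in WT 6 months, and likewise 1 and 3 in WT 24 than in WT 6 months, where 8.14% and 7.48% of all genes and 5.39% and 6.36% of all genes passed as higher and lower. Cdh17, the liver-intestine cadherin, was lower, at -0.92 and -0.80 (adjusted p = 0.0061 and 0.0153 from limma), and Ctnnal1, an α-catenin relative, at -0.66 and -0.64 (adjusted p = 0.0188 and 0.0267). Cdh17 was dim, with means of 3.69 in KO 6, 3.80 in WT 24 and 4.60 in WT 6 months. Array medians were 5.41 to 5.45. Dsp, the plakin that anchors desmosomes to keratin, was lower, at -0.68 in KO 6 months (adjusted p = 0.0462), and its partner Pkp2 at -0.68 in WT 24 months (adjusted p = 0.0257). Cdh13, a cadherin without a cytoplasmic tail, was higher by 0.70 in KO 6 months (adjusted p = 0.00654), and Cdh5, the endothelial cadherin, by 1.39 in WT 24 months (adjusted p = 0.0342), beside the endothelial markers given above. In KO 6 months the Cdh13 and Cdh17 calls held whichever array was left out, Ctnnal1 lost its call without KO 6 months replicates 1 or 2 or WT 6 months replicate 1, and Dsp without any 1 of the KO 6 or WT 6 months arrays or KO 24 months tumor replicate 3 (adjusted p up to 0.0748 and 0.141). In WT 24 months Cdh17 lost its call without WT 24 months replicate 2, Ctnnal1 without WT 6 months replicates 1 or 2 or WT 24 months replicate 1, and Pkp2 without WT 6 months replicate 2 or WT 24 months replicates 1 or 2 (adjusted p up to 0.101, 0.0992 and 0.0888). The Cdh5 call was lost without any 1 of the 6 KO arrays or WT 6 months replicates 1 or 2 (adjusted p up to 0.202), and its value was 0.87 without WT 24 months replicate 3 (adjusted p = 0.029) and 0.83 as the mean of its probe sets (adjusted p = 0.033). By that mean Dsp was at -0.43 and did not pass (adjusted p = 0.0892). The median of the list was 0.02 in KO 6 over WT 6 months, against 0.05 over all genes, and 0.03 in WT 24 over WT 6 months, against 0.01 over all genes.

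Among 33 measured tight junction genes outside the members, 5 were higher and 3 lower in KO 6 than in WT 6 months, and 2 were higher and 3 lower in WT 24 than in WT 6 months, against the shares of all genes given for the adherens list (8.14% and 7.48%, and 5.39% and 6.36%). Marveld3, a tight junction protein of the occludin family, read 5.50, 5.30 and 5.66 in KO 24 months tumor and 5.47, 6.12 and 5.50 in KO 6 months. It read 5.52, 5.78 and 6.56 in WT 24 months and 4.20, 4.29 and 4.47 in WT 6 months. All 3 WT 6 months arrays were below the 9 others, and Marveld3 was higher by 1.38 in KO 6 (SE 0.25, adjusted p = 0.00394 from limma) and by 1.63 in WT 24 months (SE 0.25, adjusted p = 0.00161 from limma). Ocln, which encodes occludin itself, was higher by 0.82 in KO 6 months (adjusted p = 0.0459), as were Cldn12 (0.45), Cldn15 (0.44) and Jam3 (0.49), while Cldn14 was lower, at -0.43. Lsr, which marks the corners where 3 cells meet, was lower, at -0.79 and -0.56, and Magi3, a scaffold, at -0.95 and -0.91 in the 2 comparisons. Jam2 was higher by 0.68 and the polarity gene Pard3 lower, at -0.61, in WT 24 months, whereas neither passed in limma in KO 6 months. Between KO 6 and WT 24 months directly, 0 of the 33 genes passed. Over all genes 0.0879% passed as higher and 0.0879% as lower in that pair. The Marveld3, Magi3 and Lsr calls held whichever array was left out. In a fit of only the groups compared the WT 24 months call of Lsr was lost (adjusted p = 0.0559 from limma). In KO 6 months the calls of Ocln, Cldn12, Cldn14, Cldn15 and Jam3 were each lost without KO 6 months replicate 3, WT 6 months replicate 1 or WT 6 months replicate 2, with adjusted p up to 0.17 (Ocln). Further losses came without KO 6 months replicate 1 (Ocln, Cldn14, Cldn15), KO 6 months replicate 2 (Cldn12, Cldn15), WT 6 months replicate 3 (Ocln, Cldn15, Jam3), KO 24 months tumor replicate 1 (Cldn15) or 2 (Ocln), and WT 24 months replicate 1 (Ocln, Cldn15). In WT 24 months Jam2 lost its call without WT 6 months replicate 2 or WT 24 months replicates 2 or 3, and Pard3 without WT 6 months replicates 1 or 3 or WT 24 months replicates 2 or 3 (adjusted p up to 0.0921 and 0.0701). By the interaction 1 gene of the list was lower and 1 higher, or 3.03% each way, near the 1.93% and 2.24% of all genes. Marveld3 was at -1.84 (SE 0.35, adjusted p = 0.0147 from limma) and Magi3 at 0.90 (SE 0.22, adjusted p = 0.0484 from limma). The Magi3 call was lost without any 1 array other than KO 6 months replicate 3 and WT 24 months replicate 2. Over all alternatives its adjusted p was up to 0.17 (limma). With the mean of all probe sets of a gene in place of the brightest, Marveld3 kept its 3 calls at 0.52 in KO 6 months, 0.68 in WT 24 months and -0.75 for the interaction, Magi3 kept its group calls at -0.50 and -0.58 and lost the interaction (0.57), and Lsr was at -0.33 in WT 24 months (adjusted p = 0.0489). Jam3 was then at 0.28 in KO 6 months and no longer passed (adjusted p = 0.0769).

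Of 20 further connexin and pannexin genes 14 were measured, and 2 were higher in each comparison, Gja4 and Gjc1 in KO 6 over WT 6 months and Gja4 and Gja1 in WT 24 over WT 6 months (14.3% of the measured genes, against 8.14% and 5.39% of all genes), with none lower. Gjc1 (connexin 45) was higher by 0.72 (adjusted p = 0.0213 from limma), a call lost without KO 6 months replicates 2 or 3 or WT 6 months replicate 2 (adjusted p up to 0.0845). Gja1 (connexin 43), the connexin of many non-hepatocyte cells, read 6.79, 6.51 and 6.44 in KO 24 months tumor and 7.17, 6.75 and 7.29 in KO 6 months. It read 8.02, 7.73 and 8.63 in WT 24 months and 6.57, 5.31 and 6.27 in WT 6 months, so that WT 24 months lay above every other array. The difference was 2.07 between WT 24 and WT 6 months (SE 0.31, adjusted p = 0.00135 from limma) and -1.55 between KO 24 months tumor and WT 24 months (SE 0.31, adjusted p = 0.0681). It was 1.02 between KO 6 and WT 6 months (adjusted p = 0.0507). This difference passed without WT 6 months replicate 1 (adjusted p = 0.0246) or WT 24 months replicates 2 or 3 (0.0442 and 0.0291). It also passed with the replicate block (0.0205), without dim probe sets (0.0347), with another variance prior (0.049) and in SAM. With 1 probe set per gene it passed as well (0.0414). The mean of the gene's probe sets passed at a smaller value, 0.73 (adjusted p = 0.038 from limma). The KO over WT difference of Gja1 at 24 months minus that at 6 months was -2.57 (SE 0.43, adjusted p = 0.0075 from limma), and this call held in all 20 alternatives. The tumor difference passed without WT 24 months replicate 1 (adjusted p = 0.0433) or WT 6 months replicate 2 (0.0266), and also with the replicate block (0.0451), without dim probe sets (0.0492) and in SAM. Gja4 (connexin 37), an arterial endothelial connexin, read 6.61, 6.46 and 6.55 in KO 24 months tumor and 6.70, 6.76 and 6.75 in KO 6 months. It read 6.68, 7.24 and 8.17 in WT 24 months and 5.93, 5.38 and 5.63 in WT 6 months, with WT 6 months below all others. Gja4 was higher by 1.72 in WT 24 than in WT 6 months (SE 0.28, adjusted p = 0.00279 from limma) and by 1.09 in KO 6 than in WT 6 months (SE 0.28, adjusted p = 0.028). In a fit of only the groups compared the WT 24 months call was lost (adjusted p = 0.0661 from limma). The KO 6 months call was lost without any 1 of the KO 6 months arrays or WT 6 months replicates 2 or 3 (adjusted p 0.0686 to 0.103). Its interaction was -1.92 (SE 0.40, adjusted p = 0.0246), lost without any 1 of the 6 KO arrays or WT 6 months replicate 2 (adjusted p up to 0.0682). Between KO 24 months tumor and WT 24 months Gja4 differed by -0.83 (adjusted p = 0.216), and by -1.17 without WT 24 months replicate 1 (adjusted p = 0.0314). WT 24 months replicate 3, the highest array for Gja1 and Gja4, also had the highest endothelial mean, 8.83, and the part of endothelial cells in these readings was not tested.

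**Figure D4:**
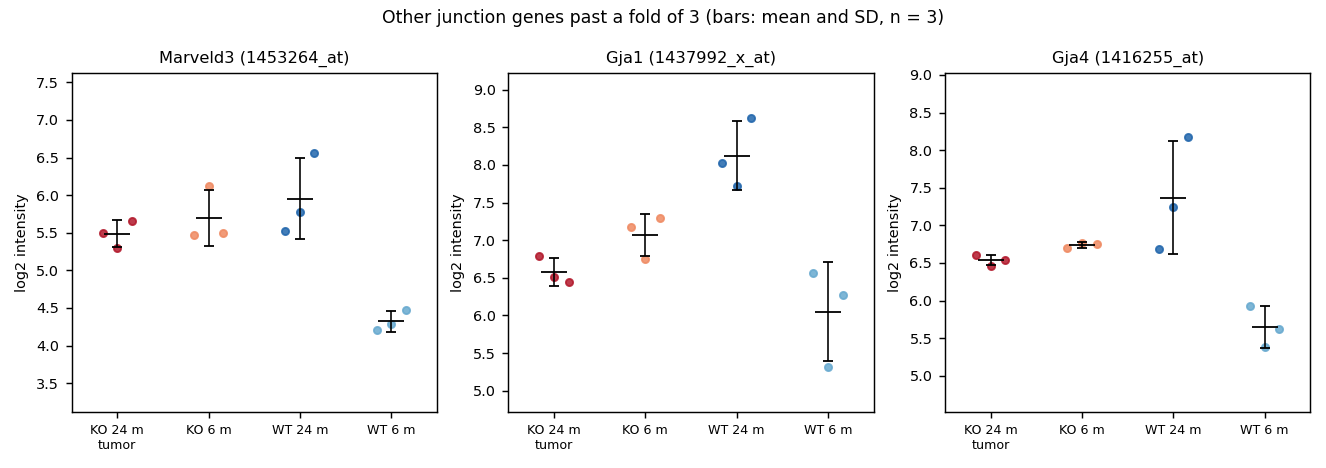
Log2 intensity (vertical axis, own range in each panel) of Marveld3, Gja1 and Gja4, the further junction genes past a fold of 3 in a comparison, in the 4 labelled groups, 1 point per array, with the mean and SD (n = 3) as bars. Marveld3 and Gja4 are lowest in the 3 arrays labelled WT 6 months, and Gja1 is highest in WT 24 months.

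Of 11 transcription factors known to repress or activate the E-cadherin gene, 1 was higher and 1 lower both in KO 6 and in WT 24 months than in WT 6 months, which is 9.09% each way, near the 8.14% and 7.48% of all genes in KO 6 and the 5.39% and 6.36% in WT 24 months. Snai2, which encodes the repressor Slug, read 8.83, 8.19 and 7.97 in KO 24 months tumor and 8.96, 8.85 and 9.18 in KO 6 months, and 8.84, 8.95 and 8.41 in WT 24 months against 7.12, 7.82 and 7.89 in WT 6 months. Its 3 WT 6 months arrays lay below all others, and it was higher by 1.39 in KO 6 (SE 0.25, adjusted p = 0.00402 from limma) and by 1.12 in WT 24 months (SE 0.25, adjusted p = 0.0159 from limma). The WT 24 months call was lost without WT 6 months replicate 1 (adjusted p = 0.0524) or WT 24 months replicate 2 (0.0555). Its interaction was -1.79 (SE 0.35, adjusted p = 0.018), which did not pass without replicate 3 of KO 6 months (0.0574) or replicate 2 of KO 24 months tumor (0.0561). Foxa1, an activator of the E-cadherin gene in other epithelia, read 8.55, 9.37 and 9.58 in KO 24 months tumor and 8.32, 8.24 and 8.48 in KO 6 months, and 8.48, 8.12 and 8.53 in WT 24 months against 9.74, 9.06 and 9.06 in WT 6 months. The tumor-labelled and WT 6 months arrays overlapped above the others, and Foxa1 was lower in KO 6 than in WT 6 months (log2 -0.94, SE 0.26, adjusted p = 0.0338 from limma) and lower in WT 24 than in WT 6 months (log2 -0.91, SE 0.26, adjusted p = 0.0473 from limma). Both Foxa1 calls were sensitive to single arrays: the WT 24 months call was lost without any 1 array other than KO 24 months tumor replicates 1 and 3 (adjusted p 0.0577 to 0.158), and the KO 6 months call without any 1 of the KO 6 months arrays or WT 6 months replicates 1 or 2 (0.0505 to 0.108). The Foxa1 interaction was 1.74 (SE 0.36, adjusted p = 0.0238), lost without any 1 of the KO 6 months arrays or KO 24 months tumor replicates 2 or 3 (0.0514 to 0.0699). In KO 24 months tumor over WT 24 months and over KO 6 months none of the 11 factors and none of the further junction genes passed in limma. Over all genes only 0.192% passed as higher and 0.121% as lower in the first comparison. In the second the shares were 0.022% and 0%, so that the lack of calls says little of these genes.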

How the data were processed

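Liver RNA of 12 mice was hybridized to Affymetrix mouse whole-genome arrays. The deposited values are log2 intensities that the authors made by RMA in R (background correction, quantile normalization, 1 value per probe set), which hides any global shift, and array medians were 5.41 to 5.45. Groups followed the deposited labels. The annotation names 1 gene for 34958 probe sets, several for 932 and none for 9211. A linear model of 4 group means over all 12 arrays was fitted with limma (version 3.58.1, R 4.3.3), with Benjamini-Hochberg adjustment over 45101 probe sets, after tests on simulated data. Other genes were taken at their probe set with the highest mean. The 10 members, Iqgap2, list genes past a fold of 3 and the 3 genes most like Cdh1 or Cldn2 were named by rule. Other list genes with a call, and Snai2 and Foxa1, were named after their values were seen. The members and lists were chosen with earlier results of these data known. Alternatives were SAM (written out over the 20 splits of 3 arrays against 3), the replicate block, gene summaries, a limit on dim probe sets, another variance prior, median centring, folds of 2 or 3, only the groups compared and each array left out. Figures were drawn with matplotlib 3.10.9.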

Additional observations from a re-analysis of the deposited data

Results flagged for a closer look

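The KO over WT difference differed between the ages in 3 junction probe sets by the interaction test in limma: Cdh1 (-2.61, SE 0.55, adjusted p = 0.0262), Cldn2 on 1417231_at (1.87, SE 0.30, adjusted p = 0.00551) and Cdh2 on 1449244_at (0.70, SE 0.16, adjusted p = 0.0362). The Cldn2 value passed whichever array was left out, while the Cdh1 and Cdh2 values did not pass without several single arrays, with adjusted p up to 0.0752 and 0.0956.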

How the results depend on the processing

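Over 2975 alternative values of the junction probe sets, 2850 kept their side of the threshold, 104 lost a call, 21 gained 1 and 0 reversed a call. The 2850 include 86 that changed sign with no call in either. Over 3094 values of the other named junction genes, 218 lost a call, 66 gained 1 and 0 reversed. Cdh1 and Cldn2 (1417231_at) kept both of their calls against WT 6 months in all alternatives. Why the values below moved was not tested, except that a fold threshold can only lower a count. Leaving out an array lowered some counts and raised others.

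At a fold of 2, the junction count was 3 for KO 6 over WT 6 months, WT 24 over WT 6 months and WT 6 months over the others, and the counts over all probe sets were 1801, 1659 and 1832, with 61 for KO 24 months tumor over WT 24 months. At a fold of 3, these junction counts were 2, 3 and 3 and those over all probe sets 806, 741 and 759, with 27 for KO 24 months tumor over WT 24 months, 598 for the interaction and 19 for KO 6 over WT 24 months. SAM called 9373 probe sets in KO 6 over WT 6 months, 242 in KO 24 months tumor over WT 24 months, 119 in KO 24 months tumor over KO 6 months, 2587 in WT 24 over WT 6 months and 136 in KO 6 over WT 24 months. A fit of only the groups compared called 22 in KO 24 months tumor over WT 24 months, 124 in KO 24 months tumor over KO 6 months, 1497 in WT 24 over WT 6 months and 3 in KO 6 over WT 24 months. In WT 24 over WT 6 months this fit lost the calls of Cdh5, Cdh17, Ctnnal1, Pkp2, Jam2, Pard3, Lsr, Gja4, Snai2 and Foxa1. It also lost those of Cdh2 on 1418815_at and Ctnnb1 on 1430533_a_at. In KO 6 over WT 6 months it lost the calls of Cdh2 on 1449244_at and Jam3.

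Without 1 array, the junction and all counts were 3 to 8 and 3360 to 6450 for KO 6 over WT 6 months, 5 to 6 and 3028 to 3997 for WT 24 over WT 6 months, 1 to 3 and 887 to 1783 for the interaction, and 6 to 9 and 4770 to 8103 for WT 6 months over the others. They were 0 to 0 and 9 to 1166 for KO 24 months tumor over WT 24 months (lowest without KO 24 months tumor replicate 2, highest without WT 24 months replicate 1), 0 to 0 and 3 to 18 for KO 24 months tumor over KO 6 months, and 0 to 0 and 13 to 784 for KO 6 over WT 24 months.

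The replicate numbers of the labels did not pair the arrays: same-numbered arrays' deviations from their group means correlated from -0.236 to 0.188, with 3 of 18 pairs over 0.1, and 5 of 12 arrays correlated best with their own number. With the replicate block, 68 probe sets passed in KO 24 months tumor over WT 24 months and 3 in KO 24 months tumor over KO 6 months, and the junction counts were 6 for KO 6 over WT 6 months, 5 for WT 24 over WT 6 months and 2 for the interaction.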
